A study of Mus musculus with 3 samples.

Results

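The data describe 9 genes that hold back the cell cycle or are used as marks of cell senescence, Cdkn1a, Cdkn1b, Cdkn1c, Cdkn2a, Cdkn2b, Trp53, Mdm2, Lmnb1 and Gdf15. They were chosen by gene symbol, each matched 1 row, and they are 9 of the 32285 genes counted. Single-cell RNA-seq was performed on flexor digitorum longus tendons of mice, with 16 tendons of both sexes pooled into 1 library for each of 3 groups. DTR mice were Scx-Cre+; DTR F/+, so that Scleraxis-lineage cells carried the diphtheria toxin receptor, and WT mice were their Scx-Cre-; DTR F/+ littermates. Both received 5 injections of diphtheria toxin at 3 months of age, and their tendons were taken 3 months later. B6 mice were C57BL/6J, 21 months old, and received no toxin. The depleted population is defined by the Scx promoter that drives Cre and not by the tenocyte-like class assigned below. The paper describes Scleraxis as the best characterized marker of tendon. The lineage of a surviving cell was not recorded. WT tendons were digested for longer than DTR and B6 tendons, and digestion and group cannot be told apart. With 1 library per group no difference could be tested. Each value below carries an exact 95% interval that covers counting error only, and cells of 1 library are not replicates of a condition, so these intervals are too narrow as statements about mice.

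A dividing cell passes from G1 into S phase when cyclin-dependent kinases inactivate the retinoblastoma protein. The INK4 proteins, among them p16Ink4a from Cdkn2a and p15 from Cdkn2b, bind the cyclin D kinases CDK4 and CDK6, while the CIP/KIP proteins p21 (Cdkn1a), p27 (Cdkn1b) and p57 (Cdkn1c) bind a wider set of cyclin and kinase complexes. Trp53 encodes p53, which switches on Cdkn1a and Mdm2 after DNA damage and other stresses, and Mdm2 in turn marks p53 for destruction. Loss of the lamina protein lamin B1 (Lmnb1) and release of the cytokine Gdf15 are 2 further features read as signs of senescence, and none of these transcripts is specific to a senescent cell. Adult tendon cells divide rarely, and cell cycle inhibitors are found in quiescent cells as well as in senescent ones.

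The promoter sequences that bear on the grouping of these genes are shown here, since the p53 link of Cdkn1a and Mdm2 and the 2 products of Cdkn2a are needed to read the counts. RefSeq promoter windows on GRCm38.p6 were available for 7 of the 9 members, in 10 windows, and the bases upstream of the start are printed on the gene's own strand with any annotated exon bases left out. Capitals mark a motif match on either strand. Cdkn1a is at chr17:29090729-29090975 on the plus strand, Mdm2 at chr10:117710759-117711008, Gdf15 at chr8:70632457-70632706, and Cdkn2a at chr4:89282193-89282442 for the Ink4a start and at chr4:89294654-89294869 for the Arf start, all 4 of these on the minus strand.
Cdkn1a: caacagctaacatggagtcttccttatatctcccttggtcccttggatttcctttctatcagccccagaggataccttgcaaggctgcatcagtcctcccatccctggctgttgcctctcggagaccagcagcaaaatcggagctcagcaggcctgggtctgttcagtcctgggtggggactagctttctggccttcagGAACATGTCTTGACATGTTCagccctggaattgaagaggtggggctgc
Mdm2: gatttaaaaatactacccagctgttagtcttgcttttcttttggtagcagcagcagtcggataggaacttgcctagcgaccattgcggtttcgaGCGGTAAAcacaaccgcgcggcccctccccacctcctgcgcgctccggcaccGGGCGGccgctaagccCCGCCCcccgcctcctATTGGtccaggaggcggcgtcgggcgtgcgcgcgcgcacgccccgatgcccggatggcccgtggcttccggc
Gdf15: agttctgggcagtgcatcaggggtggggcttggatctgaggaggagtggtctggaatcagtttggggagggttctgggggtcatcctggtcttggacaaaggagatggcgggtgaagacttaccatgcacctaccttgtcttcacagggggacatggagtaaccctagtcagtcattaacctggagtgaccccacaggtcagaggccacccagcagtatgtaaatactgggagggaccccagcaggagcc
Cdkn2a Ink4a start: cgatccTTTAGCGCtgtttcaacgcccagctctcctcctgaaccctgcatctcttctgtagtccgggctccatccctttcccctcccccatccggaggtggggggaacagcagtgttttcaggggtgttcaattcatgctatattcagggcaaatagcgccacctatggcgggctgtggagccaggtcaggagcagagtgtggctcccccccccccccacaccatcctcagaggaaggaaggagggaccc
Cdkn2a Arf start: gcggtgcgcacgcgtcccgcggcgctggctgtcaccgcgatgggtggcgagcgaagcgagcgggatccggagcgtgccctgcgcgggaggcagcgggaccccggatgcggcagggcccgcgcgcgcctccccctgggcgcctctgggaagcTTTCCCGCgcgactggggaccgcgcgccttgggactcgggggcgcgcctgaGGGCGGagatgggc
The Cdkn1a window shown held a p53 element, 2 adjoining half-sites of 10 bases with at most 1 base off, which ran from 51 to 32 bases before the start of that window. Such an element was found in 25 of 32851 promoter windows (0.0761%). Cdkn1a has a further window downstream, at chr17:29093519-29093768, which is not shown since all its bases are in annotated exons. That window held 2 GC boxes (GGGCGG, in 32.7% of all windows) and no p53 element. The Mdm2 window held 2 GC boxes, a CCAAT box (CCAAT, 33.8%) and an E2F element (TTTNNCGC, 4.28%), and no p53 element. Bases outside these windows were not searched. Both Cdkn2a windows held an E2F element, and the 2 starts lie 12427 bases apart. None of these motifs, nor a TATA box (TATAAA, 12.4%) or an AP-1 element (TGANTCA, 6.75%), was found in the Gdf15 window shown. A match is a description of letters and not of factor binding.

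To place the members in cells, each cell was assigned to a class when at least 3 of the 8 markers of that class were detected and led every other class by at least 2. Of 8357 WT, 6554 DTR and 4798 B6 cells kept, 5159, 2717 and 844 were tenocyte-like, 1144, 1164 and 2564 epitenon-like and 546, 1096 and 493 macrophage-like. T cell-like, endothelial, mural, Schwann and muscle satellite cells made up the smaller classes, with 41 to 322 cells in a library. The mix within a class differed between libraries. When the cells were clustered, a cluster named tenocyte held 1741, 136 and 137 cells of WT, DTR and B6, and another held 55, 829 and 15. A cluster named epitenon held 262, 96 and 914. The part of this mix in the tenocyte and epitenon ratios below was not tested. No marker of another class was among the 10 leading genes of any class in any library, which the gate made likely in advance. B6 mural cells had only 1 of their own markers there. Summed epitenon markers were at 29.2%, 23.2% and 30.8% of their epitenon level in WT, DTR and B6 tenocytes. They were at 19.8%, 15.4% and 24.3% in endothelial cells. Single epitenon markers in WT tenocytes ranged from 0.638% to 75.2%. Summed tenocyte markers in epitenon were at 2.21%, 1.58% and 0.870% of their tenocyte level. The median depth of kept cells was 13008, 12328 and 12914 unique molecular identifiers (UMIs) in WT, DTR and B6. More barcodes were over the mitochondrial limit in B6 (56.5%) and DTR (43.1%) than in WT (27.6%), and the libraries shared 61 to 76 barcodes in pairs, about 0.5% of the smaller library. Levels are given as counts per 1000000 UMIs (CPM) in a class of 1 library, and these levels are compared within a gene and not between genes. In tenocytes and epitenon the median gene was lower in B6 than in WT by 0.28 and 0.27 on the log2 scale, against a difference of 0.04 and 0.00 for DTR, which shifts every B6 ratio below.

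The members differed widely in how many cells they were read in. Of 17425 assigned cells, 89.1% held a Cdkn1a UMI, 51.9% a Trp53 UMI, 47.7% an Mdm2 UMI, 44.1% a Cdkn1c UMI and 43.6% a Cdkn1b UMI. Gdf15 was read in 14.2% and Lmnb1 in 7.47% of cells. The INK4 members were rare, with 304 Cdkn2a UMIs in 142 cells and 343 Cdkn2b UMIs in 277 cells over all 3 libraries. The other members had between 2178 UMIs (Lmnb1) and 248435 (Cdkn1a).

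**Figure D1:**
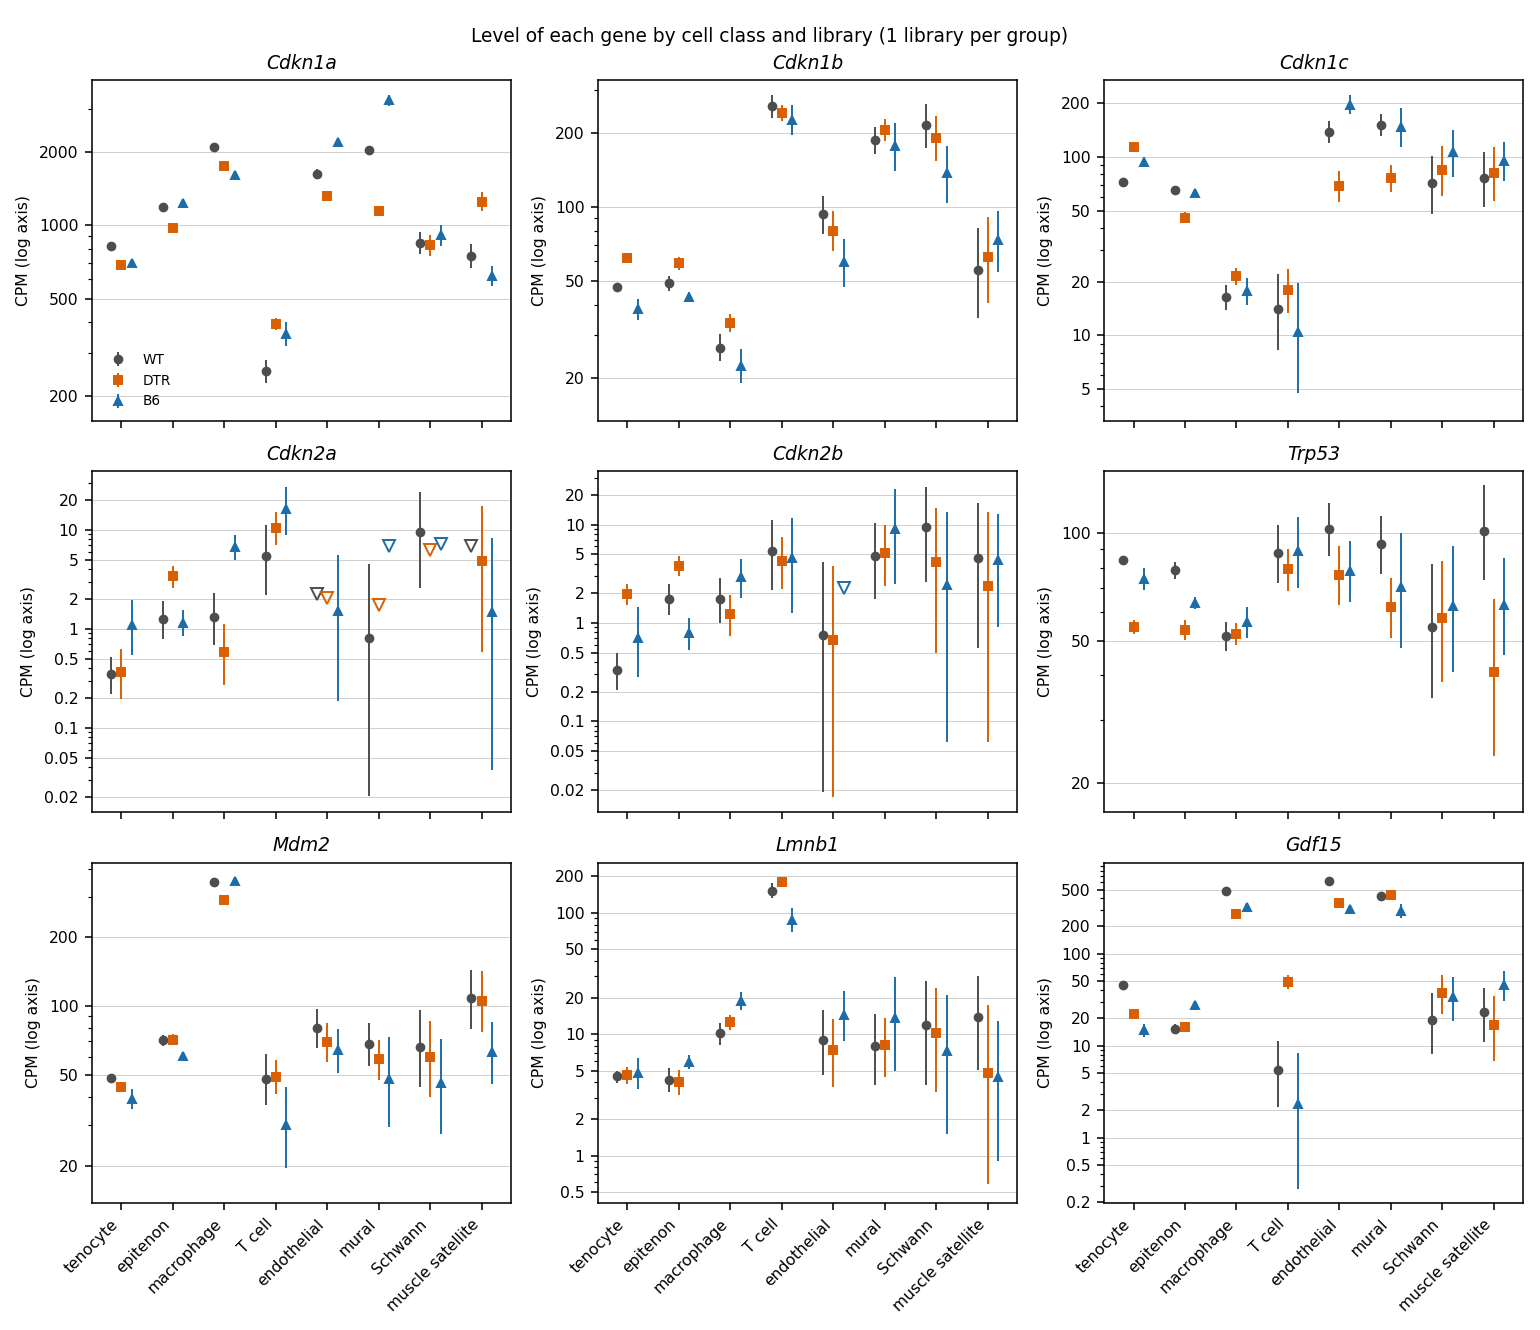
CPM of each member (log axis) in 8 cell classes, with circles for WT, squares for DTR and triangles for B6, and bars for the exact 95% Poisson interval. Open downward triangles mark sums of 0 UMIs, drawn at the level of 3 UMIs. Mdm2 was highest in macrophages in each library, Lmnb1 in T cells, and Gdf15 in macrophages, endothelial and mural cells.

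Cdkn1a, which encodes p21 and is the best known target of p53, was not highest in tenocytes. Its level was 823 CPM in WT, 688 in DTR and 698 in B6 tenocytes, against 2080, 1753 and 1599 in macrophages. Macrophages thus carried 2.53-fold (95% interval 2.49 to 2.57), 2.55-fold (2.50 to 2.59) and 2.29-fold (2.22 to 2.36) the tenocyte level. Endothelial cells were at 1623, 1311 and 2183 CPM, mural cells, the smooth muscle cells and pericytes of vessels, at 2036, 1144 and 3248, and epitenon, the outer lining of the tendon, at 1186, 973 and 1228. T cells were lowest at 252, 394 and 359 CPM. Thinned to 2000 UMIs per cell, 59.8%, 53.8% and 55.8% of tenocytes and 85.7%, 79.4% and 83.4% of macrophages held a Cdkn1a UMI, and the order of these classes held at equal depth.

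Between libraries Cdkn1a stayed within 2-fold in each class compared. The DTR to WT ratio was 0.837 (0.824 to 0.849) in tenocytes, 0.820 (0.804 to 0.837) in epitenon, 0.843 (0.827 to 0.859) in macrophages and 0.808 (0.760 to 0.859) in endothelial cells, all lower in DTR. It was lower still in mural cells, at 0.562 (0.530 to 0.596), and on the other side of 1 in T cells, at 1.56 (1.38 to 1.77). B6 to WT was 0.849 in tenocytes, 0.769 in macrophages, 1.04 in epitenon and 1.34 in endothelial cells. The 8 mural markers in endothelial cells summed to 20.4% of their mural level in B6, against 4.75% in WT and 3.76% in DTR, with 0, 0 and 1 of the markers at 0 in B6, WT and DTR, and the part of mural RNA or of misassigned cells in the B6 endothelial levels of Cdkn1a, Cdkn1c and Gdf15 was not tested. On the CPM scale, the B6 tenocyte value of 698 and the DTR value of 688 could not be separated by counting (ratio 1.01, 0.987 to 1.04). This likeness depended on the scaling. With a scaling that centres the bulk of genes (TMM), the tenocyte ratio to WT was 0.995 for B6 and 0.778 for DTR. The epitenon B6 to WT ratio was then 1.27.

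Cdkn1b, the p27 gene that keeps resting cells out of S phase, had a different order. T cells were highest at 258, 243 and 227 CPM in WT, DTR and B6, and mural cells (187, 207 and 177) and Schwann cells, the glia of peripheral nerve (216, 192 and 137), came next. The class next in order to T cells overlapped them in each library, but mural cells in WT and Schwann cells in B6 did not, at 3.97-fold (3.46 to 4.54) and 3.59-fold (2.67 to 4.76) the tenocyte level against 5.48-fold (4.88 to 6.13) and 5.95-fold (4.98 to 7.08) in T cells. Macrophages were lowest at 26.7, 33.7 and 22.5 CPM. Tenocytes, at 47.2, 62.2 and 38.2 CPM, and epitenon, at 48.8, 58.9 and 42.9, could not be separated from each other in WT and DTR, and in B6 epitenon was at 1.12-fold tenocytes (1.00 to 1.26), with a lower bound just above 1. DTR cells were higher than WT cells by 1.32-fold (1.25 to 1.39) in tenocytes, 1.21-fold (1.10 to 1.32) in epitenon and 1.26-fold (1.08 to 1.48) in macrophages. In T cells, endothelial and mural cells the interval of this ratio held 1.

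Cdkn1c, the imprinted p57 gene, was higher in DTR than in WT in tenocytes and macrophages and lower in epitenon, endothelial and mural cells. WT, DTR and B6 tenocytes were at 72.6, 114 and 93.9 CPM, so both DTR (1.57-fold, 1.51 to 1.64) and B6 (1.29-fold, 1.20 to 1.39) were above WT, and 93.5% of the genes tested had a lower DTR to WT ratio in tenocytes. In tenocytes called female and male by their sex chromosome genes, DTR to WT was 1.30 and 1.47. B6 to WT was 1.29 (1.15 to 1.45) and 1.09 (0.970 to 1.23), and over all tenocytes 1.04 with a mitochondrial limit of 5%. Female WT tenocytes were at 0.716 of male ones, and 72.8% of WT but 41.1% of DTR tenocytes with a call were female. In epitenon DTR was the lowest of the 3, at 45.6 CPM against 64.9 in WT and 62.5 in B6 (DTR to WT 0.703, 0.642 to 0.770). Endothelial cells were at 138, 68.8 and 197 CPM, a DTR to WT ratio of 0.497 (0.386 to 0.636) and a B6 to DTR ratio of 2.86 (2.26 to 3.63). In endothelial cells B6 was also above WT (1.42-fold). Mural markers in B6 endothelial cells were at 20.4% of their mural level, against 4.75% in WT and 3.76% in DTR. Of the endothelial cells 20.8% in B6, 6.71% in WT and 8.67% in DTR only just met the gate. The part of either in these Cdkn1c values was not tested. Mural cells also had their lowest value in DTR, with 151 CPM in WT, 75.8 in DTR and 148 in B6. In WT and B6 Cdkn1c was thus highest in vessel cells, and in DTR the highest value was that of tenocytes. The mural class was not the same mix in each library. Of the clusters named mural, cluster 13 held 94, 164 and 15 cells of WT, DTR and B6, and cluster 15 held 73, 53 and 38. The leading gene of the class was Higd1b in DTR and Myh11 in WT and B6. The part of this mix in the mural values of the members was not tested. Macrophages at 16.4 to 21.5 CPM and T cells at 10.4 to 18 were lowest in each library. In macrophages DTR to WT was 1.31, and 1.32 (1.08 to 1.61) without the top cell of each library. It was 1.38 (1.03 to 1.86) in macrophages called female and 1.13 (0.815 to 1.61) in those called male.

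The INK4 members were read in too few cells to rank classes. Cdkn2a gave 24 UMIs in 12 WT tenocytes, 13 in 12 DTR tenocytes and 11 in 5 B6 tenocytes, or 0.346, 0.364 and 1.10 CPM, all below the 5 CPM at which ratios were read. The 3′ counts do not tell p16Ink4a from p19Arf, the 2 unlike proteins of this locus, since the annotated transcripts share a run of 578 bases that ends 70 and 0 bases from their 3′ ends. In epitenon Cdkn2a gave 22, 61 and 44 UMIs (1.25, 3.39 and 1.15 CPM). In T cells it gave 7, 29 and 14 UMIs, and of these 5, 9 and 10 came from the 6, 7 and 4 cells with at least 3 of 9 markers of division.

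Macrophages held the clearest Cdkn2a difference between libraries, and it rested on 9 cells. The level was 1.31 CPM in WT (12 UMIs in 5 cells), 0.586 in DTR (9 UMIs in 6 cells) and 6.67 in B6 (48 UMIs in 9 of 493 cells). B6 was 5.08-fold WT (2.66 to 10.5) and 11.4-fold DTR (5.53 to 26.4). A single B6 cell gave 15 of the 48 UMIs, and another gave 13. Without the top cell of each library the B6 level was 4.60 CPM, under the 5 CPM limit, and the ratios were 5.99 (2.61 to 16.0) and 14.1 (5.48 to 46.3). Of the 48 UMIs, 47 were in cells low in MHC class II genes, which were 417 of the 493 B6 macrophages. With the UMIs in 9 cells, this count does not place Cdkn2a in the low cells.

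Cdkn2b, whose p15 protein is induced by TGF-β, was higher in DTR tendon cells at very low counts. Tenocytes gave 23 UMIs in 22 WT cells, 70 in 58 DTR cells and 7 in 7 B6 cells, or 0.331, 1.96 and 0.699 CPM. The DTR to WT ratio was 5.91 (3.64 to 9.92), at a level below 5 CPM in both libraries. In epitenon the counts were 31, 69 and 30, the ratio DTR to WT was 2.17 (1.40 to 3.43), and B6 was lower than DTR at 0.205 (0.129 to 0.319). Among epitenon cells called male by their sex chromosome genes DTR was 6.75-fold WT (2.48 to 25.7), and among those called female the ratio was 0.949 (0.465 to 1.87).

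The partners of these inhibitors were read from a list of 15 genes. In DTR tenocytes 3 of the 11 that reached 5 CPM were past 2-fold higher than WT and 0 were lower, beside 4.57% of all genes past 2-fold in either direction, and the median log2 ratio was 0.48 against 0.04 for all genes. These were Cdkn2c, the INK4 gene of p18 (25 against 3.89 CPM, 6.42-fold, 5.60 to 7.39), Cdk6, a target kinase of the INK4 proteins (7.50 against 0.937 CPM, 8.01-fold, 6.08 to 10.7), and Ccnd2, which encodes cyclin D2 (111 against 54.6 CPM, 2.04-fold). Cdk6 and Ccnd2 were named after their values were seen. In epitenon the same comparison gave 2 of 12, again Cdkn2c (2.97-fold) and Cdk6 (2.55-fold), beside 2.35% of all genes. The 5 CPM was needed in only 1 of the 2 libraries compared. Cdkn2c and Cdk6 were below it in WT tenocytes, and Cdkn2c was below it in WT epitenon (4.89 CPM). They were thus tested there only through DTR, where they were high, and the counts and the median hold for genes chosen by this rule. None of the 9 and 11 partners tested was past 2-fold between B6 and WT in tenocytes and epitenon. This is near the share of all genes, 6.88% and 3.78%. B6 tenocytes had Cdkn2c at 3.99 CPM, with an interval of the ratio that held 1.

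**Figure D2:**
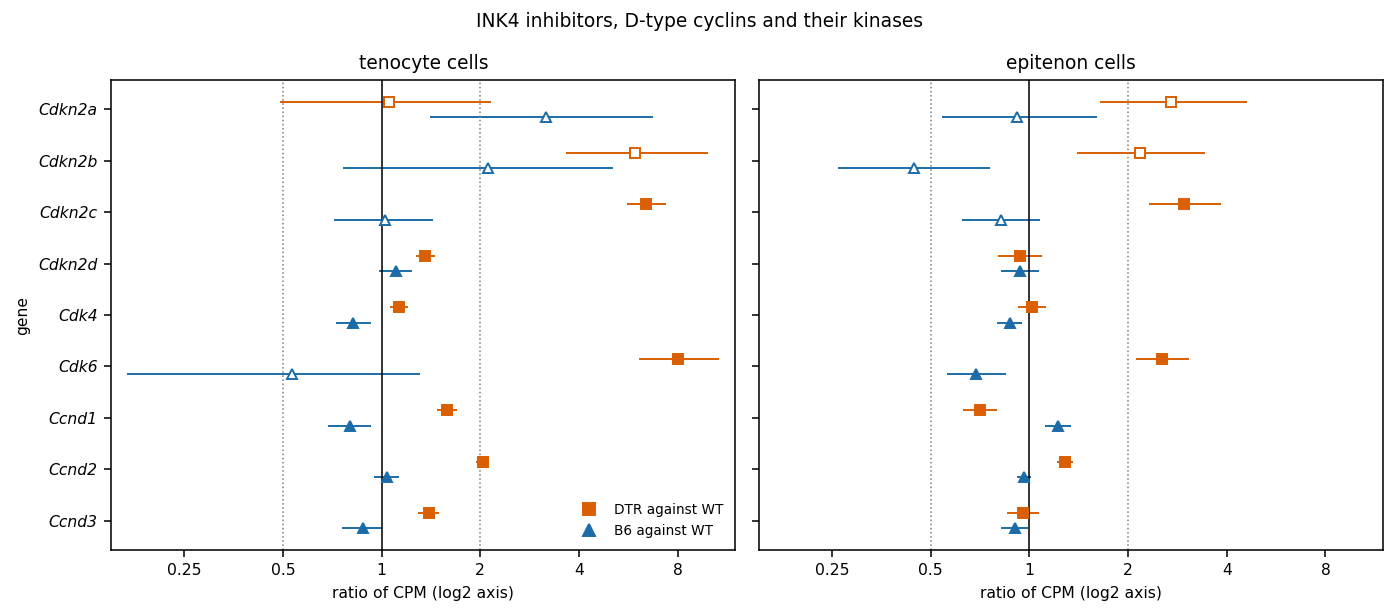
Ratio of CPM to WT (log2 axis) for the INK4 inhibitors, their kinases and the D-type cyclins in tenocytes and epitenon, with squares for DTR, triangles for B6 and bars for exact 95% intervals. Open symbols are genes below 5 CPM in both libraries, and dotted lines mark 2-fold. Cdkn2c (6.42-fold) and Cdk6 (8.01-fold) stand to the right in DTR tenocytes, while the B6 symbols of both lie near or below 1.

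Trp53 was lower in DTR than in WT in tenocytes, epitenon, endothelial and mural cells. In WT, DTR and B6 the level was 84.3, 54.6 and 74.3 CPM in tenocytes, 78.7, 53.7 and 63.8 in epitenon and 51.4, 52.2 and 56.3 in macrophages. The intervals of neighbouring classes in the order overlapped in each library, while classes further apart did not, with WT macrophages at 0.610 (0.554 to 0.670) and DTR T cells at 1.45 (1.25 to 1.67) of the tenocyte level. The DTR to WT ratio was below 1 in tenocytes (0.648, 0.615 to 0.682), epitenon (0.683, 0.628 to 0.742), endothelial cells (0.744, 0.574 to 0.961) and mural cells (0.666, 0.507 to 0.874), and in macrophages the ratio was 1.02 (0.906 to 1.14). Only 5.23% of the genes tested in tenocytes and 4.99% in epitenon had a lower DTR to WT ratio than Trp53. B6 to WT was 0.811 (0.759 to 0.867) in epitenon and 0.766 (0.587 to 0.996) in endothelial cells. It was 0.882 (0.816 to 0.952) in tenocytes. With a scaling that centres the bulk of genes (TMM) the B6 to WT ratio became 1.03 in tenocytes and 0.998 in epitenon.

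Mdm2, the ubiquitin ligase that removes p53, was highest in macrophages. Macrophages were at 350, 292 and 353 CPM in WT, DTR and B6, tenocytes at 48.4, 44.0 and 39.0 and epitenon at 70.6, 71.3 and 60.4. The macrophage level was 7.24-fold (6.90 to 7.60), 6.64-fold (6.26 to 7.03) and 9.05-fold (8.13 to 10.1) that of tenocytes, with no overlap between macrophages and any other class. Macrophages, which were 6.53%, 16.7% and 10.3% of kept cells, held 39.4%, 57.9% and 46.8% of the Mdm2 UMIs of assigned cells. The more numerous tenocytes held 41.3%, 20.3% and 7.2%, and epitenon 15.3%, 16.6% and 42.4%. Within macrophages DTR was lower than WT at 0.833 (0.796 to 0.872), and B6 was at 1.01 (0.956 to 1.06). In tenocytes the ratios were 0.910 for DTR and 0.807 for B6.

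The wider p53 programme was read from 20 target genes that were not members. In DTR tenocytes 0 of 18 tested were past 2-fold higher and 1 was lower (4.57% of all genes in either direction), Fas, the death receptor, at 81.5 CPM against 217 in WT (0.376, 0.361 to 0.391), while the list's median log2 ratio was 0.31 against 0.04 for all genes. DTR epitenon (2.35% of all genes past 2-fold) had 1 of 20 lower and 1 higher, a like Fas ratio of 0.359 (0.312 to 0.412), and Pmaip1, which encodes the death protein Noxa, 3.83-fold higher at 5.66 against 1.48 CPM. In B6 tenocytes, where 6.88% of all genes were past 2-fold, 1 of 18 was higher, Gadd45a, which acts in growth arrest and repair (177 against 62.1 CPM, 2.84-fold), and 1 was lower, Tnfrsf10b (2.60 against 7.35 CPM, 0.353). In B6 epitenon (3.78% of all genes) 1 of 20 was higher, Pmaip1 (4.69-fold), and 1 lower, Perp (0.482). Pmaip1 and Tnfrsf10b were named after their values were seen. Pmaip1 was below 5 CPM in WT epitenon and was tested there only through DTR or B6, where it was high. Tnfrsf10b in B6 tenocytes was tested only through WT, where it was high. Of the p53 regulators, 0 of 5 tested passed 2-fold in tenocytes or epitenon in either comparison with WT.

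Lmnb1, which encodes lamin B1 of the nuclear lamina, had its highest level in T cells. T cells were at 152, 178 and 87.7 CPM, and tenocytes at 4.48, 4.59 and 4.79, so that T cells held 33.9, 38.8 and 18.3 times the tenocyte level. By number of UMIs, T cells held 27.7%, 51.8% and 14.8% of all Lmnb1 UMIs of assigned cells, and the largest share was that of tenocytes in WT (44%) and of epitenon in B6 (43.7%). Tenocytes did not differ beyond counting error, with a DTR to WT ratio of 1.02 (0.842 to 1.24) and a B6 to WT ratio of 1.07 (0.772 to 1.45), which leaves room for a difference of up to 0.772-fold or 1.45-fold. The tenocyte level was below the 5 CPM at which ratios were read in each library. In B6 T cells Lmnb1 was lower than in DTR (0.493, 0.382 to 0.629) and WT (0.577, 0.437 to 0.755), on 76 UMIs in 34 of 82 cells. Dividing T cells were at 275, 315 and 319 CPM and the other T cells at 143, 172 and 65.7, with B6 lowest among the other T cells. These other cells had fewer markers of division than the gate for dividing cells needed, and could hold some. Dividing T cells were few, and whether the B6 difference was limited to the other T cells was not tested. Of the other lamina genes, 0 of 8 tested were past 2-fold in tenocytes in either comparison with WT, near the 4.57% (DTR) and 6.88% (B6) of all genes.

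In macrophages Lmnb1 was higher in B6 than in WT. The level was 10.2, 12.5 and 18.8 CPM, a B6 to WT ratio of 1.84 (1.40 to 2.43) and a DTR to WT ratio of 1.23 (0.953 to 1.59). The B6 to WT ratio was 2.42 (1.68 to 3.54) in cells called female by their sex chromosome genes and 1.04 (0.642 to 1.67) in cells called male. After these values were seen, macrophages were split by whether at least 2 of 3 MHC class II genes, which serve antigen presentation, were detected after thinning. The MHC class II high cells were 4.95% of WT, 13.0% of DTR and 15.4% of B6 macrophages. They carried Lmnb1 at 86.2, 59.6 and 88.0 CPM, and the low cells at 5.47, 5.24 and 5.31, so that the high cells held 49.5%, 63.2% and 76.3% of the macrophage Lmnb1 UMIs. Within the low cells the B6 to WT ratio was 0.972 (0.600 to 1.56) and the DTR to WT ratio 0.959 (0.653 to 1.42). The part of the share of high cells in the macrophage ratios was not tested. Cdkn2b was also placed in the high cells in B6, with 18 of 21 UMIs.

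**Figure D3:**
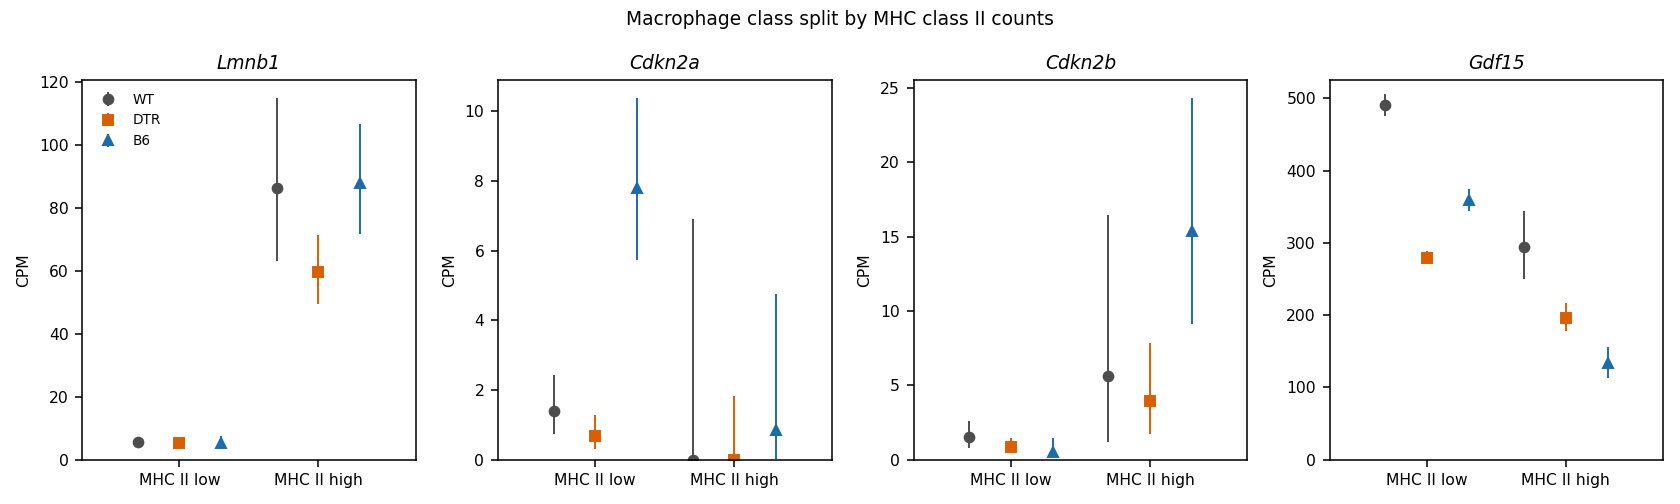
CPM (linear axis) of Lmnb1, Cdkn2a, Cdkn2b and Gdf15 in macrophages low or high in MHC class II counts, with circles for WT, squares for DTR, triangles for B6 and exact 95% Poisson intervals. Lmnb1 lies at 5.24 to 5.47 CPM in the low cells of all 3 libraries and at 59.6 to 88.0 in the high cells. B6 stands apart for Cdkn2a in the low cells (7.80 CPM). In the high cells Cdkn2b was at 15.4 CPM in B6 (9.12 to 24.3), an interval that overlaps that of WT (5.62, 1.16 to 16.4).

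Gdf15, a secreted cytokine of the TGF-β superfamily induced by p53 and by the integrated stress response, was highest in endothelial cells, macrophages and mural cells. Endothelial cells were at 622, 353 and 310 CPM in WT, DTR and B6, macrophages at 479, 268 and 322 and mural cells at 420, 433 and 291. Tenocytes were at 45.3, 22 and 14.8 and epitenon at 15.3, 15.9 and 27.9. Macrophages held 47.7%, 62.2% and 56.3% of the Gdf15 UMIs of assigned cells. A few cells weighed on some of these sums, since 1 cell gave 271 of the 832 WT endothelial UMIs, and 1 cell gave 116 of the 138 DTR T cell UMIs. Without the top cell of each library the DTR T cell level was 7.96 CPM in place of 49.6, and the DTR to WT ratio 1.69 (0.664 to 5.09) in place of 9.13 (4.31 to 23.1).

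In tenocytes Gdf15 was lower in both other libraries than in WT. DTR to WT was 0.485 (0.448 to 0.525) and B6 to WT 0.326 (0.275 to 0.385), and 1.48% and 0.773% of the genes tested had lower ratios. A Gdf15 UMI was found in 13.4%, 8.43% and 7.82% of tenocytes, and after thinning to 2000 UMIs in 4.54%, 2.61% and 2.02%. In T cells the thinned share was 1.59% in WT, 1.55% in DTR and 0 of 82 in B6, which by a floor of 3 counts allows up to 3.66% of cells with a UMI, at median depths of 9890, 7864 and 9768 UMIs against 12903, 12386 and 11016 in tenocytes. Tenocyte Gdf15 was 9.46%, 8.20% and 4.59% of the macrophage level. The summed macrophage markers in tenocytes were 0.176% to 0.353% of their level in macrophages, and endothelial markers 0.115% to 0.184% of theirs. Summed mural markers in tenocytes were at 4.48%, 5.67% and 2.95% of their mural level in WT, DTR and B6. Single mural markers ranged from 0.0824% to 119% in WT. The part of RNA from other classes in the tenocyte Gdf15 values was not tested. Macrophages also had lower Gdf15 in DTR (0.560, 0.537 to 0.585) and B6 (0.672, 0.639 to 0.707) than in WT, and so did endothelial cells (0.567 and 0.498). The endothelial B6 ratio was 0.645 (0.563 to 0.738) without the top cells.

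In epitenon Gdf15 was higher in B6 than in both other libraries. B6 to WT was 1.83 (1.6 to 2.1) and B6 to DTR 1.75 (1.54 to 2), and DTR to WT was 1.04 (0.882 to 1.24). A single DTR cell gave 133 of 287 UMIs, and without the top cells the B6 ratios were 2.03 to WT and 3.06 to DTR, and DTR to WT was 0.665 (0.538 to 0.820). Muscle satellite cells had their highest value in B6 as well (23.0, 16.8 and 45.5 CPM in WT, DTR and B6), and in macrophages B6 to DTR was 1.2 (1.14 to 1.26). Genes known to respond to tissue dissociation were also higher in B6 epitenon and tenocytes, with a summed level of 18690 and 16857 CPM against 10431 and 8203 in WT. Of 18 such genes, 9 were past 2-fold higher in each of these B6 classes, led by the heat shock gene Hspa1a (8.35-fold and 14.7-fold). Of all genes, 3.78% in epitenon and 6.88% in tenocytes were past 2-fold in either direction. The sum was also above WT in DTR tenocytes (11919 CPM, with 15 of 18 genes higher and 0 past 2-fold) and in B6 endothelial cells (18257 against 12917 CPM, with 15 of 18 higher and 3 past 2-fold). Of all genes, 4.57% and 16.8% were past 2-fold there, so 3 of 18 in endothelial cells was near the share of all genes. B6 was above WT as well in mural (22534 against 15997 CPM), Schwann (14762 against 9776), muscle satellite (12551 against 4892) and T cells (4396.5 against 3746). In macrophages B6 was lower (11818 against 12781 CPM). The part of these genes in the Gdf15 values was not tested.

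The Gdf15 values also differed between cells called female and male by Xist and Y chromosome transcripts. The share called female among tenocytes with a call was 72.8% in WT, 41.1% in DTR and 51.4% in B6. Female tenocytes were at 49.3, 38.0 and 20.1 CPM and male tenocytes at 42.3, 11.9 and 14.7. DTR to WT was therefore 0.770 (0.695 to 0.852) in female and 0.280 (0.238 to 0.328) in male tenocytes, lower in DTR in both. In epitenon B6 was higher than WT in female (1.38-fold) and male cells (3.42-fold), with B6 to DTR at 0.636 in female cells, where the 133-UMI cell lies, and 4.45 in male cells. Macrophages were at 446, 259 and 394 CPM in female and 602, 260 and 224 in male cells. The number of mice behind each sex is not known here, so sex and single mice cannot be told apart.

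**Figure D4:**
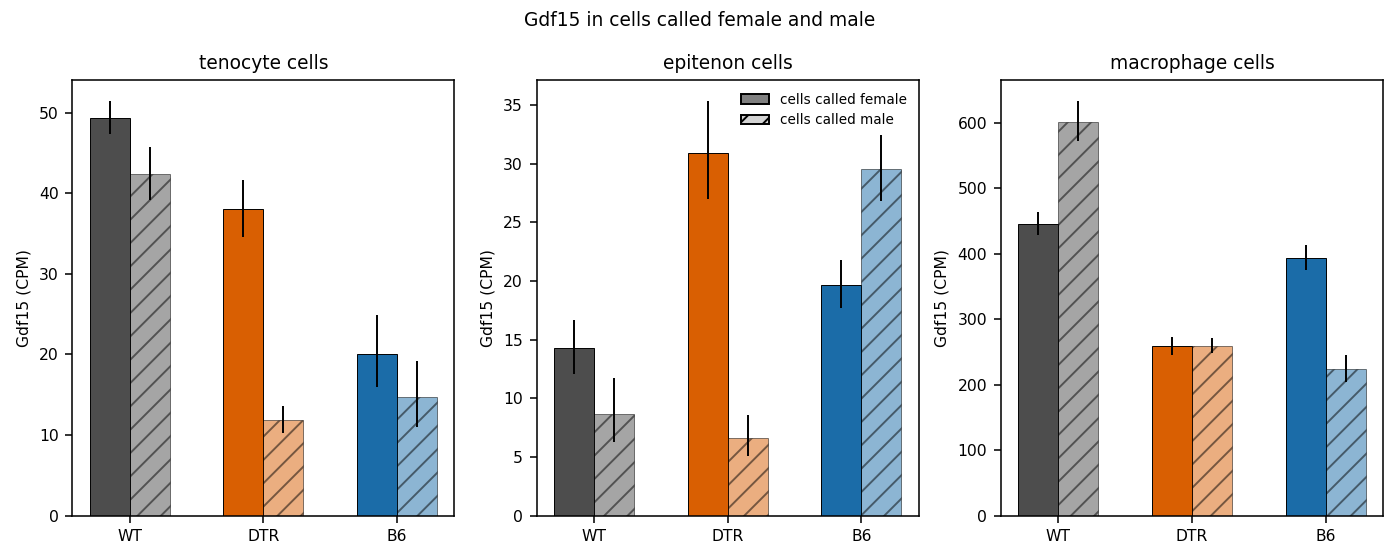
Gdf15 level (CPM, linear axes from 0, a separate scale for each class) in tenocytes, epitenon and macrophages, with plain bars for cells called female, hatched bars for cells called male and exact 95% Poisson intervals as lines. In DTR tenocytes the female bar is at 38.0 and the male bar at 11.9 CPM, and in epitenon the tall DTR female bar (31.0 CPM) includes the 1 cell with 133 UMIs.

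Counted over the members, few ratios passed 2-fold, and the share was read beside that of all genes with at least 5 CPM. In tenocytes 1 of 6 members tested was past 2-fold in DTR against WT and 1 of 6 in B6 against WT, Gdf15 in both, where 4.57% and 6.88% of all genes were, and 0 of 6 in B6 against DTR (11.9% of all genes). In epitenon 0 of 6, 0 of 7 and 0 of 7 were, beside 2.35%, 3.78% and 6.37%. In macrophages 0 of 7 were for DTR against WT (2.7%), and 1 of 8, Cdkn2a, for B6 against WT (6.83%) and for B6 against DTR (6.95%). Macrophage Cdkn2a was tested only through B6, where it was high (6.67 CPM). As a mean over cells or without the top cell of each library, both of these macrophage counts were 0. In endothelial cells 1 of 7 was in each comparison, Cdkn1c for DTR against WT (9.31%), Gdf15 for B6 against WT (16.8%) and Cdkn1c for B6 against DTR (17%). T cells, with 82 to 322 cells, gave 1 of 9 (Gdf15; 8.84%), 2 of 9 (Cdkn2a and Gdf15; 20.1%) and 2 of 8 (Lmnb1 and Gdf15; 19.7%). Some of these Gdf15 calls also went without the top cell of each library. The ratio was then 0.645 in endothelial cells for B6 against WT and 1.69 in T cells for DTR against WT. In T cells for B6 against WT both levels were then below 5 CPM (1.16 and 4.72). Mural cells gave 0 of 8 for DTR against WT (13%), and Schwann cells 2 of 9, Cdkn2a and Cdkn2b (22.4%), on at most 4 UMIs. These Schwann ratios, and Gdf15 in T cells for B6, were likewise tested only through the library where the gene was higher. DTR and B6 share the WT library as reference, so their ratios to WT are not independent.

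**Figure D5:**
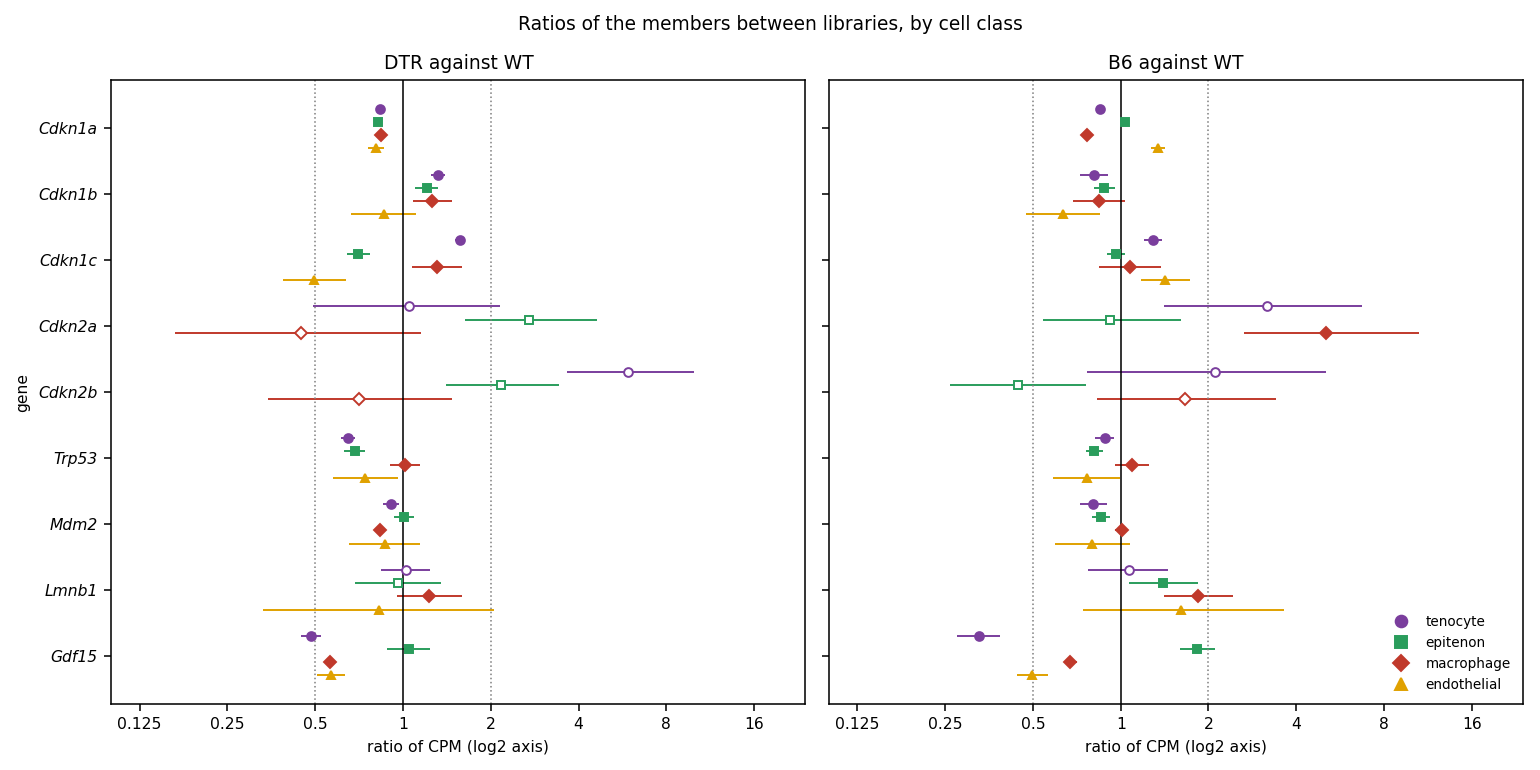
Ratio of CPM (log2 axis) of each member in DTR against WT and in B6 against WT, by cell class, with exact 95% intervals as bars. Open symbols are members below 5 CPM in both libraries, dotted lines mark 2-fold, and ratios with at most 3 UMIs in both libraries are not drawn. Gdf15 lies to the left in tenocytes in both panels (0.485 and 0.326) and to the right in B6 epitenon (1.83), and Cdkn1c is on opposite sides of 1 in DTR tenocytes (1.57) and endothelial cells (0.497).

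Companion lists for proliferation, stress and secretion were read in the same way. Of 18 proliferation genes, 6 and 7 reached 5 CPM in tenocytes of DTR and B6 against WT, and 6 in epitenon of each. The others were not tested. None of those tested was past 2-fold. This is near the share of all genes, 4.57% and 6.88% in tenocytes and 2.35% and 3.78% in epitenon. Of the secreted genes linked with senescence, 4 of 19 were past 2-fold higher in DTR tenocytes, among them the protease genes Mmp13 (38.1 against 3.27 CPM, 11.6-fold) and Mmp14 (2.06-fold) and the cytokine gene Csf2 (2.12-fold), and 1 was lower, Il1b (0.182), beside 4.57% of all genes in either direction. B6 tenocytes (6.88% of all genes) had 3 of 18 higher, Mmp13 (3.91-fold), Il6 (3.35-fold) and Plau (2.63-fold), and 2 lower, Il1b (0.0214) and Spp1 (0.254). In DTR epitenon (2.35%) 0 of 19 were higher and 4 lower, Igfbp3 (0.418), Il6 (0.431), Plau (0.480) and Spp1 (0.490). In B6 epitenon (3.78%) 3 of 19 were higher, Ccl8 (4.83-fold), Hgf (2.65-fold) and Il6 (2.25-fold), and 2 lower, Mmp3 (0.303) and Spp1 (0.0748). Mmp13 was below 5 CPM in WT tenocytes and was tested there only through DTR or B6, where it was high. Il1b in B6 tenocytes (0.599 CPM) and Spp1 in B6 epitenon (4.19 CPM) were tested only through WT, where they were high. Il1b was at 28.0 CPM in WT tenocytes against 1077 in WT macrophages, and the part of RNA from macrophages in its tenocyte values was not tested. Of integrated stress response genes, 3 of 9 were lower in DTR tenocytes (4.57%), Chac1, which degrades glutathione (34.1 against 103 CPM, 0.331), Trib3 (0.405) and Asns (0.476), and 1 of 9 was higher in B6 tenocytes (6.88%), Atf3 (2.32-fold). Of these lists, the genes that were not at either end of a list were named after their values were seen.

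The genes whose levels were most like each member were taken over 15 points, 5 classes in 3 libraries, among 8748 genes. The points of 1 library share processing and those of 1 class share cell type, so each Pearson r is a description. Closest to Cdkn1a was Cdc42ep4 (0.97), to Cdkn1b Mbd2 (0.98), to Cdkn1c Papss2 (0.96), to Mdm2 Gusb (0.99) and to Gdf15 Siah2 (0.95). Lmnb1 was closest to Cd2, a T cell surface receptor (1.00), and to Cenpa, a centromere histone of dividing cells (0.99). Trp53, with its narrow range, had Sf3b3 at 0.90, and the sparse Cdkn2a and Cdkn2b had Hist1h2ap and Coro7, each at 0.92.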

How the data were processed

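Single-cell libraries (10x Chromium 3′ v3) were sequenced and aligned by the authors, who deposited raw UMI counts per gene and barcode for 3 libraries. Cell Ranger is given as 6.0.1 in the file headers and as 2.1.1 in the submitters' processing notes, and the genome build is not given in the sources used here. A barcode was kept as a cell when it had between 1000 and 5000 detected genes and a mitochondrial share of up to 10%. Classes were gated on 8 markers each. Counts were summed per class and library and scaled to CPM (Python 3.11.15, numpy 2.4.6, scipy 1.17.1, pandas 2.3.3). Intervals are exact at 95% (Poisson, binomial, or conditional for ratios), and with 1 library per group no test was run. A ratio needed 50 cells in both libraries, and a gene was counted past 2-fold with at least 5 CPM in 1 of them. A gene could thus be tested through only the library where it was high. On simulated counts for B6 against WT tenocytes (8951 genes with at least 5 CPM in WT), the ratio intervals held the true value for 90% to 96% of genes. The counts were drawn by the Poisson model that the intervals assume, so this checks the calculation only. UMIs that gather in a few cells, and genes below 5 CPM, were not simulated. Clusters used scanpy 1.11.5, and TMM factors edgeR 4.0.16. Doublets were not removed in the values given. The members, lists and splits were chosen with earlier results of these data known. Named genes were the members, the 3 genes most like each, and the list genes with the largest and smallest ratio to WT in tenocytes and epitenon among those with 10 CPM. Ddit3 has 2 rows, of which the lower was used. Lmnb1 and Cdkn1c had no promoter window. A result from the list of secreted genes is not reported here.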

Additional observations from a re-analysis of the deposited data

Results flagged for a closer look

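Several members had ratios on opposite sides of 1 in different cell classes, or in cells called female and male, under the same pair of libraries. With 1 library per group, none of these differences was tested, and the values are given without an explanation.

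For DTR against WT, Cdkn1a was at 1.56 in T cells and 0.562 in mural cells. Cdkn1c was at 1.57 in tenocytes, 0.497 in endothelial cells and 0.501 in mural cells. Gdf15 was at 9.13 in T cells, where 116 of 138 DTR UMIs came from 1 cell, and at 0.485 in tenocytes, 0.560 in macrophages and 0.567 in endothelial cells.

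For B6 against WT, Gdf15 was at 1.83 in epitenon, 0.326 in tenocytes and 0.498 in endothelial cells. For B6 against DTR, it was at 1.75 in epitenon and 0.0465 in T cells, the latter on 2 B6 UMIs. Lmnb1 was at 1.84 in macrophages and 0.577 in T cells for B6 against WT, and at 1.5 and 0.493 for B6 against DTR. MHC class II high cells were 4.95%, 13.0% and 15.4% of WT, DTR and B6 macrophages, and in the low cells Lmnb1 was at 0.972 for B6 against WT. The part of that share was not tested.

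Gdf15 in epitenon for B6 against DTR was 0.636 in cells called female and 4.45 in cells called male. In the female cells 133 of the 217 DTR UMIs came from 1 cell.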

How the results depend on the processing

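Of 55 ratios of members, 37 kept their side of 1 under each alternative that gave a value, and 4 of those past 2-fold crossed 1, each below 5 CPM in both libraries. For B6 against WT in tenocytes, a mitochondrial limit of 5% took Cdkn2a from 3.18 to 0.638 and Cdkn2b from 2.11 to 0.610. In epitenon Cdkn2b went from 2.17 to 0.949 in female cells for DTR against WT, and from 0.445 to 1.33 in male cells for B6 against WT. No paired analysis was possible because each group was 1 library. For Gdf15 in tenocytes, DTR against WT moved from 0.485 to 0.426 with a stricter gate, 0.534 with a looser gate, and 0.770 and 0.280 in female and male cells, and B6 against WT moved from 0.326 to 0.552 with at least 500 genes per cell and no upper limit, 0.274 with the stricter gate, 0.489 with a gate on thinned counts and 0.406 in female cells. For Gdf15 in endothelial cells, B6 against WT moved from 0.498 to 0.441 with a mitochondrial limit of 20%, 0.613 with at least 500 genes, 0.282 with the stricter gate, 0.392 with the thinned gate, 0.562 with TMM, 0.432 as a mean over cells and 0.645 without the top cell of each library, an alternative chosen after seeing the data. In male cells Cdkn2a in macrophages was at 28.7 and Cdkn1c in endothelial cells at 3.80 for B6 against DTR.

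The count of members past 2-fold in tenocytes became 0 for DTR against WT with at least 500 genes, the looser gate, clusters or female cells, and 0 for B6 against WT with at least 500 genes. In epitenon it became 1 for DTR against WT (at least 500 genes, stricter gate, female, male), 1 for B6 against WT (at least 500 genes, male, TMM, without the top cell) and, for B6 against DTR, 2 (at least 500 genes, male) or 1 (stricter gate, clusters, female, TMM, mean over cells, without the top cell). In macrophages it became 1 for DTR against WT in male cells. For B6 against WT it became 3 with a mitochondrial limit of 5%, 2 with the looser gate, female or male cells, and 0 as a mean over cells or without the top cell. For B6 against DTR it became 3 with the limit of 5% and 0 as a mean over cells or without the top cell. The cause was not tested, except that dropping the top cells took Cdkn2a below 5 CPM.

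Without a filter on low values, 26.8%, 38.1% and 39.2% of all genes were past 2-fold in tenocytes (DTR against WT, B6 against WT, B6 against DTR), 25.3%, 29.9% and 33.1% in epitenon and 26.9%, 30.4% and 33.6% in macrophages, and with at least 50 CPM the share for DTR against WT was 1.47% in epitenon and 1.24% in macrophages. TMM put Trp53 in tenocytes at 1.03 and Cdkn1b and Mdm2 in epitenon at 1.08 and 1.05 for B6 against WT, on the other side of 1. It took Trp53 in epitenon from 0.811 to 0.998 for the same pair. The doublet alternative is void, since Scrublet marked 2, 7 and 1 of 8357, 6554 and 4798 cells. Some alternatives left under 50 endothelial cells and gave no ratio. Depth limited Cdkn2a and Cdkn2b, below 5 CPM in tenocytes and epitenon of each library, and Lmnb1, below 5 CPM in tenocytes of each library.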

Other observations

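Schwann and muscle satellite cells, the stem cells of muscle fibres, were too few for most comparisons. Cdkn1a in muscle satellite cells was at 747, 1247 and 619 CPM in WT, DTR and B6, on 41, 49 and 70 cells, and in Schwann cells at 845, 829 and 906. Cdkn1b in muscle satellite cells was at 55.3, 62.4 and 73.3 CPM, with overlapping intervals.

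Cells that met no marker gate, 979 in WT, 779 in DTR and 526 in B6, held Lmnb1 at 20.5, 21.2 and 20.3 CPM, above the tenocyte level in each library, and Gdf15 at 93.0, 58.2 and 87.1. Cdkn2b in these cells was at 0.944, 4.84 and 1.36 CPM, highest in DTR as in tenocytes and epitenon.

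Barcodes outside the filter on cells, 7179 in WT, 9545 in DTR and 7475 in B6, had Cdkn2a at 3.06, 5.26 and 4.04 CPM. The kept cells had it at 0.828, 1.78 and 2.19 CPM. Trp53 was lower outside the filter than in kept cells in each library, at 60.9, 37.5 and 44.6 against 81.1, 56.1 and 66.0 CPM. These barcodes were not assigned to classes.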
